A study of Mus musculus with 6 samples.

Results

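The 8 troponin genes of the mouse genome (Tnni1, Tnni2, Tnni3, Tnnt1, Tnnt2, Tnnt3, Tnnc1 and Tnnc2) were picked by symbol from the count tables, in which 18148 genes had at least 1 count, and all 8 were among these. They were followed in 6 libraries of droplet-based single cell RNA sequencing (scRNA-seq) of left ventricular cardiomyocytes (CMs) of C57BL/6J mice. The labels name no transgene and no treatment. At each of 3 ages, E16.5 (an embryonic day) and the postnatal days P1 and P5, a diploid (2n) and a tetraploid (4n) library was made. The title of E16.5-4n gives embryonic day 16.5 and its other labels give 16.6. Cells were fixed in methanol, stained for the muscle protein MYH1 and the DNA dye Hoechst, and sorted. Cells of 3 sorts from several pups were pooled for each library, and the ages came from different breeding pairs. With 1 library per condition, a difference between conditions cannot be told apart from one between libraries, and no test between conditions was made.

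Troponin is the calcium switch of striated muscle. Troponin C binds calcium, troponin I holds the actin filament in its off state, and troponin T anchors the complex on tropomyosin. Each subunit has isoforms that are known for a muscle type: Tnni1, Tnnt1 and, together with the heart, Tnnc1 are those of slow skeletal muscle, Tnni2, Tnnt3 and Tnnc2 those of fast skeletal muscle, and Tnni3 and Tnnt2 those of the heart. The fetal heart uses the slow skeletal form of troponin I and replaces it with the cardiac form around birth, a change that makes the filament more sensitive to acidosis and to adrenergic control.

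The 6 matrices held 31156 cells and 100645207 unique molecular identifiers (UMIs, 1 for each captured RNA molecule), between 13213992 and 19714177 per library, with medians of 1813 (P1-2n) to 4639 (P5-4n) UMIs per cell. All deposited cells were used, since Tnni3, Tnnt2 and Tnnc1 are 3 of the 4 genes (with Actc1) by which the study kept CMs. UMIs of at least 5 of 10 CM markers were found in 97.5 to 99.2% of the cells of a library. Cells with UMIs of 3 or more markers of 1 non-CM list made up 2.33, 17.7, 2.18, 26.9, 5.22 and 10.3% of the libraries. Series of 6 values are given here and below in order of age, with 2n before 4n at each age. Most of these cells held fibroblast markers, whose 7 genes summed to 157 (P1-2n) to 952 (P1-4n) CPM (counts per 1000000 UMIs of a library). Between 17 and 62 cell barcodes were shared by a pair of libraries over the 15 pairs.

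Of the members, 3 pairs are neighbours in the genome (GRCm38, 1-based). Tnni1 (ENSMUSG00000026418, chr1:135779434-135810989) and Tnnt2 (ENSMUSG00000026414, chr1:135836354-135852260) lie on the plus strand with 25364 bases and the gene Lad1 between them. Tnnt1 (ENSMUSG00000064179, chr7:4504570-4516382) and Tnni3 (ENSMUSG00000035458, chr7:4518305-4524229) lie on the minus strand, 1922 bases apart with no gene between them. Tnni2 (ENSMUSG00000031097, chr7:142441808-142444410) and Tnnt3 (ENSMUSG00000061723, chr7:142498836-142516009) lie on the plus strand with 54425 bases and the gene Lsp1 between them. Tnnc1 (ENSMUSG00000091898, chr14:31208312-31211729, plus) and Tnnc2 (ENSMUSG00000017300, chr2:164777161-164779967, minus) stand alone. The annotated span of Tnni3 overlaps Dnaaf3 on the same strand, so that strand does not separate reads in the shared stretch. How such reads were counted was not tested.

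The stretches before the starts of Tnni1, Tnni3 and Tnnt1 are shown because these 3 genes differed most with age among the members that were well covered. The sequences are those of RefSeq (GRCm38.p6), which holds starts for 6 of the 8 members. All 3 printed stretches lie inside the annotated spans of their own genes given above. The annotation thus places the 5′ end of each gene further upstream. Of the 250 bases before a start, only the part that no annotated exon covers is printed, 5′ to 3′ on the strand of the gene, with E-boxes (CANNTG) in capitals.
Tnni1 (chr1:135799171-135799401, plus strand, ending 20 bases before the start): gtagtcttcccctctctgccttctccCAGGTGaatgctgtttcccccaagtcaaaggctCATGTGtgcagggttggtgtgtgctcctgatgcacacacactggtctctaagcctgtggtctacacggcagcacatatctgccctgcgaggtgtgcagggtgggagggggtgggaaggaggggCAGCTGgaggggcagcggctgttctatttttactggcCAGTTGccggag
Tnni3 (chr7:4522529-4522694, minus strand, ending at the start): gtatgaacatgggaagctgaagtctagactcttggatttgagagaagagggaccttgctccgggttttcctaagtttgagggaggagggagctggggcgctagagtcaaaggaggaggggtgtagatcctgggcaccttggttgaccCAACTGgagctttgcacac
Tnnt1 (chr7:4516005-4516225, minus strand, ending 30 bases before the start): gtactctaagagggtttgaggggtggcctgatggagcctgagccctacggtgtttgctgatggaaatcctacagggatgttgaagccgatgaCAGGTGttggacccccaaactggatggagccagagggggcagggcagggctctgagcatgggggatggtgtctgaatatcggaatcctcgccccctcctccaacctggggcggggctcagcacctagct
Tnni1 held 4 E-boxes in this window, Tnni3 held 1 and Tnnt1 held 1, and 66.2% of 32536 promoter windows of 250 bases held at least 1 on either strand. TATAAA was found in the window of Tnnt1, where it begins 30 bases before the start and runs into an annotated exon, and in 12.3% of all windows. CATTCC (the M-CAT element) was found before Tnnt2 and Tnnc1 and in 12.6% of all windows, and GATAA before Tnnt2 and in 22.5%. AAGTG (NKX2-5 core) was found before a second start of Tnni1 and in 40.6% of all windows. AGGTCA (a nuclear receptor element, in 14.0% of all windows) and the MEF2 and CArG boxes (2.89% and 1.48%) had no match before any member. These matches are descriptions of letters and not of binding.

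Troponin I isoforms differed with age in both ploidies. One tag is counted per molecule at the 3′ end, so CPM is not scaled by gene length and levels of different genes are set side by side only as counts of molecules. Tnni1, the slow skeletal and fetal form, was at 6480, 5162, 4802, 4306, 2808 and 2699 CPM. It was highest in E16.5-2n, lowest in both P5 libraries, and lower at each later age in 2n and in 4n. Tnni3, the cardiac form, was at 4997, 4099, 8437, 7786, 8723 and 8971 CPM. Its E16.5 libraries were the lowest and its P1 and P5 libraries lay close together. The counting intervals (exact 95% Poisson limits) of these values were narrow, for example 6439 to 6522 CPM for Tnni1 in E16.5-2n, and they cover counting error only, not the spread between hearts.

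The steps of both genes lay at different ages. From E16.5 to P1 the log2 ratio of Tnni3 was 0.76 (0.74 to 0.77, exact interval from a binomial on the summed UMIs) in 2n and 0.93 (0.91 to 0.94) in 4n. From P1 to P5 it was 0.05 (0.04 to 0.06) and 0.20 (0.19 to 0.21), much less than in the step before. For Tnni1 the same steps gave -0.43 (-0.45 to -0.42) and -0.26 (-0.28 to -0.25) up to P1, the latter turning to 0.07 under the median of ratios scaling, and -0.77 (-0.79 to -0.76) and -0.67 (-0.69 to -0.66) from P1 to P5. CPM shares out a fixed total, and the median of all genes tested was itself at -0.33 (2n) and -0.30 (4n) from E16.5 to P1 and at -0.09 and -0.16 from P1 to P5. Relative to that median, Tnni1 was at -0.10 (2n) and 0.04 (4n) in the first step and at -0.68 and -0.51 in the second, and Tnni3 was at 1.09 and 1.23 and then at 0.14 and 0.36.

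**Figure D1:**
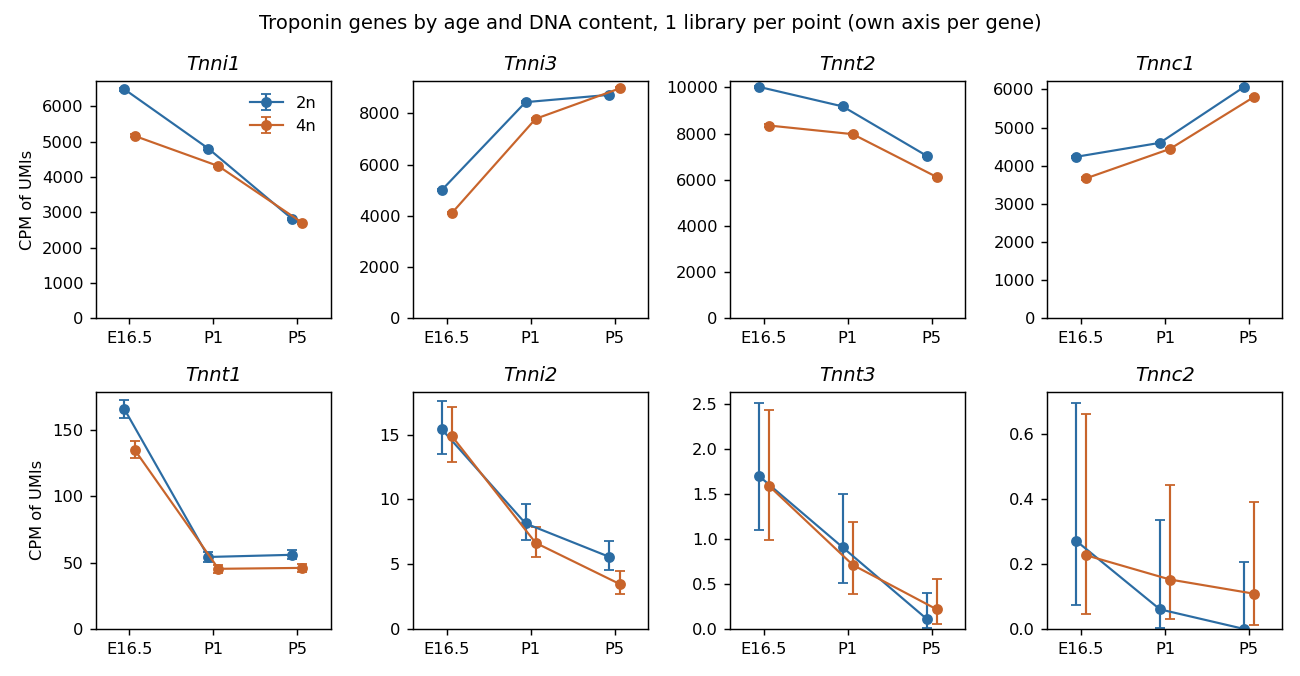
CPM of the 8 troponin genes (vertical axes, each gene with its own scale from 0) at E16.5, P1 and P5 in 2n (blue) and 4n (orange) libraries, 1 library per point, with bars for the exact 95% Poisson interval of the UMIs. Tnni1 goes from 6480 to 2808 CPM in 2n while Tnni3 goes from 4997 to 8723, and Tnnt1 goes from 165.4 to 54.2 CPM by P1 and is at 55.8 CPM at P5.

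Because both transcripts come from the same cell, the Tnni3 share of Tnni1 plus Tnni3 UMIs does not depend on the scaling of a library. Pooled over all cells of a library it was 43.5, 44.3, 63.7, 64.4, 75.7 and 76.9%. It was 20.2 points higher (19.8 to 20.6, the widest that the exact intervals of both shares allow) in P1-2n than in E16.5-2n, and 20.1 points (19.6 to 20.6) higher in P1-4n than in E16.5-4n. From P1 to P5 the differences were 11.9 points (11.5 to 12.3) in 2n and 12.5 points (12.1 to 12.9) in 4n. As a ratio, Tnni3 to Tnni1 UMIs went from 0.771 to 1.76 and 3.11 in 2n, and from 0.794 to 1.81 and 3.32 in 4n.

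Single cells shifted as a body. Among cells with at least 10 troponin I UMIs (87.7 to 98.4% of a library), the median Tnni3 share per cell was 43.8, 44.4, 64.0, 64.3, 76.1 and 77.6%. Cells with a Tnni3 share over 50% made up 24.6% (exact 95% interval 23.5 to 25.8) and 27.5% of the E16.5 libraries, 88.0% and 93.0% of the P1 libraries, and 99.1% and 99.5% of the P5 libraries. Both isoforms were found in 99.6 to 100% of these cells at every age, and cells with Tnni1 alone numbered 1, 3, 0, 0, 0 and 0. Cells with Tnni3 alone numbered 0, 0, 12, 1, 15 and 14. In cells in which 12 sarcomere genes took under 2% of UMIs, a Tnni1 UMI was still found in 54.9 (P5-4n) to 87.1% (P1-4n). How much RNA from other cells adds to the finding of both isoforms in a cell was not tested. The standard deviation (SD) of the share over cells was 11.5, 11.9, 10.8, 9.19, 9.03 and 8.12 points, and counting alone would give 10.1, 11.0, 9.91, 8.12, 7.03 and 6.25 points at the same numbers of UMIs. The spread beyond counting was thus 4.31 to 5.66 points.

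**Figure D2:**
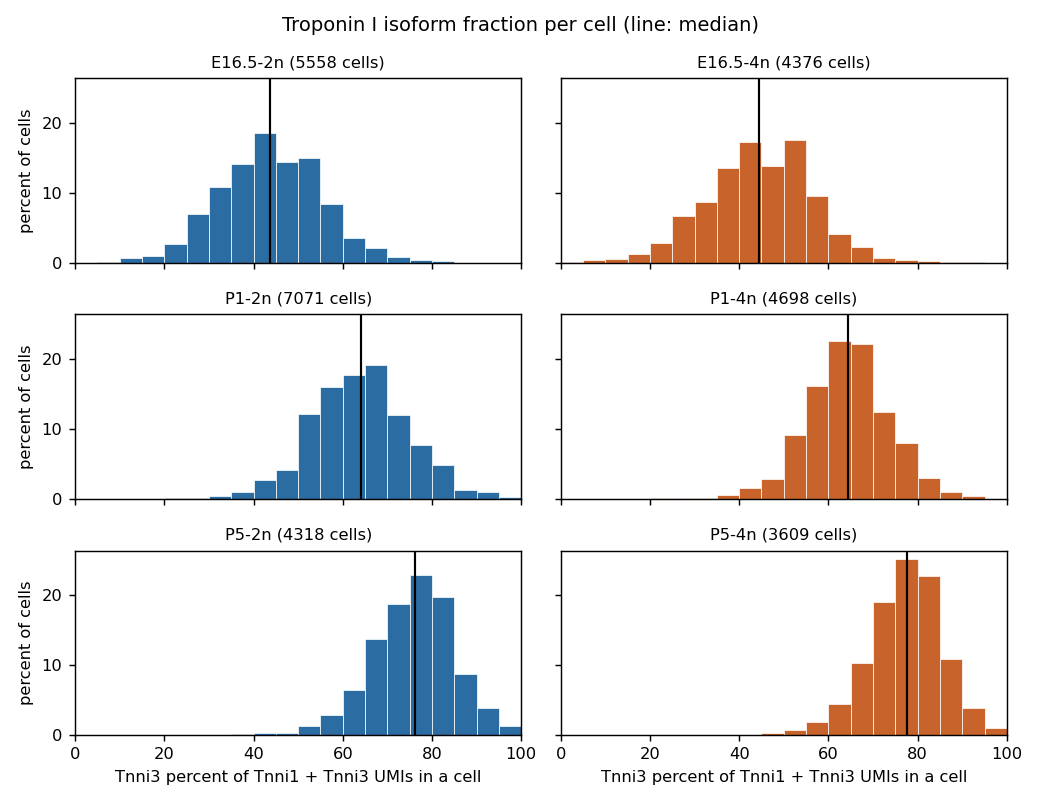
Percent of cells (vertical axis) by the Tnni3 percent of Tnni1 plus Tnni3 UMIs in a cell (horizontal axis, 20 bins) for the 6 libraries, with the median as a black line, in cells with at least 10 such UMIs. Each library forms 1 broad body of cells, with medians of 43.8 and 44.4% (E16.5), 64.0 and 64.3% (P1) and 76.1 and 77.6% (P5). The tallest bar need not hold the median: in E16.5-4n it is at 50 to 55% (17.6% of cells), beside 40 to 45% (17.2%). Uneven neighbouring bars can come from ratios of small whole numbers.

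Few cells of a later age lay at or below the median share of an earlier one. In P5-2n, 11 of 4318 cells (0.255%, 0.127 to 0.455) lay at or below the median of E16.5-2n, and in P5-4n none of 3609 cells did, for which the exact 95% interval reaches 0.102%. Between neighbouring ages the overlap was larger: 257 of 7071 cells of P1-2n (3.64%) lay at or below the median of E16.5-2n, and 413 of 4318 cells of P5-2n (9.57%) at or below that of P1-2n. In 4n the same counts were 100 of 4698 cells (2.13%) and 224 of 3609 cells (6.21%). These counts leave out the earlier cells above their median, and the full ranges of neighbouring ages overlapped widely. The 5th percentile of P1-2n (45.8%) lay below the 95th of E16.5-2n (63.2%), and that of P5-2n (60.5%) below the 95th of P1-2n (81.8%). Over cells of different depth the share differed by far less than between ages. Between the shallowest and the deepest 25% of cells it was 45.1 and 43.4% in E16.5-2n and 76.7 and 76.9% in P5-4n.

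Between genes, the isoforms of troponin T and C did not exchange in this way. Counts are per gene, so splice forms within a gene such as Tnnt2 could not be compared. Tnnt2, the cardiac troponin T, was at 10028, 8352, 9178, 7976, 7040 and 6119 CPM, the member with the most molecules in all E16.5 and P1 libraries, and fewer molecules than Tnni3 in both P5 libraries. Its log2 ratio from E16.5 to P1 was -0.13 (2n) and -0.07 (4n), and both change sign under the median of ratios scaling (0.22 and 0.26), so no direction is read from that step. From P1 to P5 it was -0.38 in both ploidies, or -0.29 and -0.22 relative to the median of all genes. It held 98.4, 98.4, 99.4, 99.4, 99.2 and 99.3% of all troponin T UMIs. Tnnc1, which serves both cardiac and slow skeletal muscle, was at 4233, 3669, 4601, 4441, 6062 and 5803 CPM. Its libraries at P5 were the highest in both ploidies, with log2 ratios from P1 of 0.40 (0.38 to 0.41) and 0.39 (0.37 to 0.40), and 0.12 and 0.28 for the step before.

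Tnnt1, the slow skeletal troponin T that is present in the fetal heart, differed in CPM between E16.5 and P1 by more than the other 5 members with at least 100 UMIs, in 2n and in 4n. Relative to the median of all genes its log2 ratio was -1.276 (2n) and -1.275 (4n), beside 1.09 and 1.228 for Tnni3. The order of Tnnt1 and Tnni3 in 4n depends on the scaling. Tnnt1 was at 165.4, 135, 54.2, 45.3, 55.8 and 46.0 CPM, and the E16.5 libraries stood far above the other 4, which lay between 45.3 and 55.8 CPM. The log2 ratio from E16.5 to P1 was -1.61 (-1.72 to -1.50) in 2n and -1.58 (-1.70 to -1.46) in 4n, or 3.05 and 2.98-fold lower. From P1 to P5 it was 0.04 (-0.09 to 0.17) and 0.02 (-0.12 to 0.16), within counting error of no difference. Its share of the troponin T UMIs was 1.62, 1.59, 0.587, 0.564, 0.786 and 0.745%. A UMI of Tnnt1 was found in 22.2, 20.5, 10.4, 15.5, 18.2 and 19.5% of cells. The E16.5 libraries were again the highest, but the order of the other 4 did not follow the CPM, and the P1-4n and P5 libraries are deeper. With each cell thinned to 1000 UMIs (203, 27, 779, 0, 29 and 0 shallower cells left out), the shares were 11.5, 10.3, 4.81, 3.92, 4.94 and 4.13%. In cells in which 12 sarcomere genes took under 2% of UMIs (74, 141, 59, 70, 86 and 51 cells with medians of 981, 1485, 876, 1768, 1318 and 1366 UMIs) the unthinned shares were 6.76, 12.1, 1.70, 1.43, 2.33 and 1.96%.

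At E16.5 the Tnnt1 molecules lay unevenly over cells. A cut of 5 Tnnt1 UMIs per cell, chosen after the values had been seen, was reached by 100 of 5782 cells of E16.5-2n, which held 32.3% of its Tnnt1 UMIs, and by 60 of 4988 cells of E16.5-4n, which held 23.8%. It was reached by 5, 3, 1 and 1 cells of the later libraries, although these are mostly deeper, and the most in any cell went from 24 and 16 UMIs at E16.5 to 9, 6, 5 and 6. Cells at the cut were deeper than the rest, at medians of 2832 against 2215 UMIs and 3650 against 2142 UMIs, and 1 and 13 of them held 3 markers of a non-CM list. Tnni1, Tnni3, Tnnt2 and Tnnc1 differed from the other cells of the library by log2 ratios of -0.11 to 0.12. Tnni3 was at 4698 against 5005 CPM (log2 ratio -0.09, -0.16 to -0.02) in E16.5-2n and at 4263 against 4096 CPM (0.06, -0.03 to 0.14) in E16.5-4n. The atrial light chain Myl7 was higher in them in both libraries, at 1606 against 695 CPM (1.21, 1.08 to 1.33) and at 1302 against 597 CPM (1.13, 0.97 to 1.28). With a cut of 3 UMIs (214 and 159 cells) these log2 ratios of Myl7 were 1.06 and 0.91. The other atrial light chain, Myl4, was not higher in the cells at the cut of 5 UMIs. It was at 1990 against 2145 CPM (-0.11, -0.22 to 0.00) in E16.5-2n and at 1386 against 1651 CPM (-0.25, -0.40 to -0.11) in E16.5-4n. Acta1 was at 335 against 151 CPM (1.15, 0.87 to 1.42) in E16.5-2n, with UMIs in 15 of the 100 cells, and at 56.1 against 89.1 CPM (-0.67, -1.48 to 0.04) in E16.5-4n, from 16 UMIs. Tnni2 was at 34.4 against 15.0 CPM (interval of the log2 ratio 0.22 to 2.03) in E16.5-2n, from 12 UMIs in 4 cells, and at 3 UMIs in E16.5-4n. Myl1, a fast skeletal light chain gene, was lower in the cells at the cut in both libraries. Its log2 ratios were -1.08 (-1.95 to -0.33, from 14 UMIs) for 2n and -0.92 (-1.93 to -0.07, from 11 UMIs) for 4n. For Casq1 and Mylpf, also fast skeletal genes, the intervals reached to both sides of no difference. Acta2 was higher in these cells for 2n (0.26, 0.15 to 0.37) and for 4n (0.32, 0.19 to 0.45). The part of the cells with non-CM markers in these values was not tested.

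The 3 fast skeletal members were low, and Tnnt3 and Tnnc2 were near the floor. Tnni2 was at 15.4, 14.9, 8.14, 6.65, 5.56 and 3.47 CPM (227, 197, 135, 131, 100 and 64 UMIs), lower at each later age in both ploidies. Its log2 ratio from E16.5 to P5 was -1.47 (-1.83 to -1.13) in 2n and -2.10 (-2.53 to -1.69) in 4n. It never held more than 0.161% of troponin I UMIs and was found in 1.69 to 3.15% of cells. Tnnt3 gave 25, 21, 15, 14, 2 and 4 UMIs and Tnnc2 gave 4, 3, 1, 3, 0 and 2 UMIs in all cells of a library, too few for a ratio. A count of 0 for Tnnc2 in P5-2n allows up to 3 UMIs, or 0.167 CPM. No cell held UMIs of 3 skeletal muscle markers, and Myod1 and Pax7, which mark skeletal muscle precursors, were at 0 in all 6 libraries. Of 13 fast skeletal genes other than troponins, Myh1, Myh2, Myod1 and Pax7 were at 0 throughout, Myh3, Myh4, Myh8, Actn3, Atp2a1 and Myog stayed at or below 0.760 CPM, and Myl1, Casq1 and Mylpf had at least 100 UMIs in E16.5 and P1 together. Myl1, a light chain gene, was at 83.6, 72.2, 22.1, 24.6, 37.6 and 21.8 CPM, Casq1 at 36.7, 27.0, 10.9, 11.0, 20.7 and 12.7 CPM, and Mylpf at 8.09, 7.11, 2.23, 1.72, 1.22 and 1.41 CPM. All 3 were over 2-fold lower at P1 than at E16.5 in both ploidies. Of all genes tested, 14.0% (2n) and 14.6% (4n) passed 2-fold in either direction. Of these, 1136 were lower and 182 higher in 2n, and 1177 lower and 284 higher in 4n.

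Of the 8 members, 6 had at least 100 UMIs in each pair of libraries, and Tnnt3 and Tnnc2 were not compared. A 2-fold difference from E16.5 to P1 was passed by 1 member in 2n (Tnnt1), where 14.0% of the genes tested passed it, and by 2 in 4n (Tnni2 and Tnnt1), where 14.6% did. From P1 to P5 no member passed it in either ploidy, where 5.14% of the genes did in 2n and 8.04% in 4n. Over the whole span from E16.5 to P5 it was passed by 3 members in 2n (Tnni1, Tnni2 and Tnnt1, all lower; 19.7% of genes) and by 3 in 4n (Tnni2 and Tnnt1 lower, Tnni3 higher; 23.7% of genes). The median log2 ratio of the members over that span was -0.86 (2n) and -0.69 (4n), beside -0.45 and -0.51 over all genes tested. Under the median of ratios scaling Tnni1 was at -0.76 in 2n and no longer passed, Tnni3 passed there (1.25), and Tnnc1 also passed in 4n (1.19), with 12.5% (2n) and 14.2% (4n) of genes past 2-fold.

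**Figure D3:**
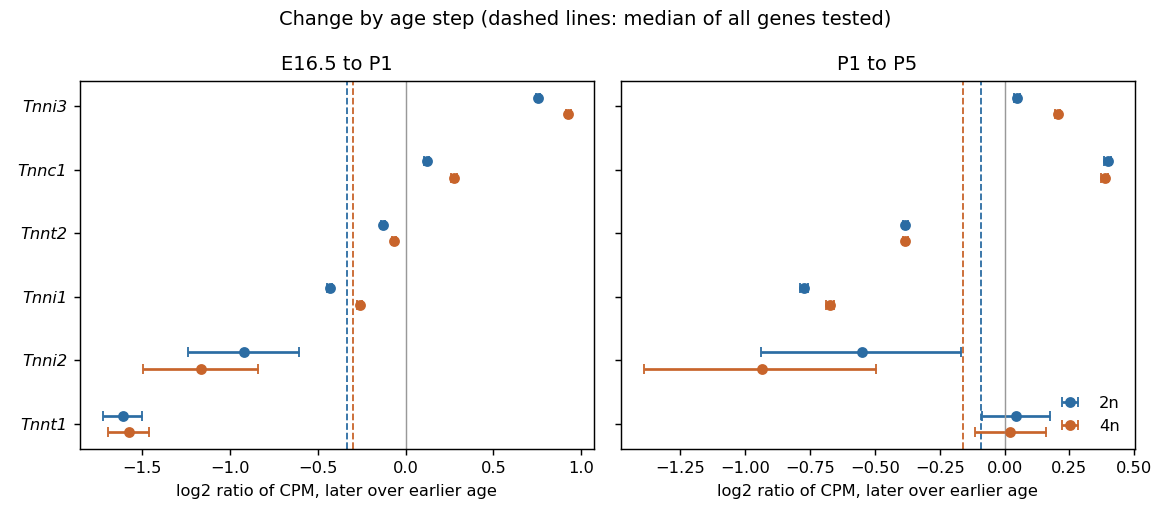
Log2 ratio of CPM (horizontal axes), P1 over E16.5 on the left and P5 over P1 on the right, for the 6 members with at least 100 UMIs in a pair, in 2n (blue) and 4n (orange), with exact 95% intervals of the binomial split of the UMIs and the median of all genes tested as dashed lines. Tnni3 stands at 0.76 and 0.93 on the left and at 0.05 and 0.20 on the right, while Tnni1 stands at -0.43 and -0.26 on the left and at -0.77 and -0.67 on the right.

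The balance among the subunits moved with age. All troponin UMIs together made up 2.59, 2.14, 2.71, 2.46, 2.47 and 2.36% of a library. Troponin I held 44.3, 43.3, 48.9, 49.3, 46.7 and 49.4% of them, troponin T held 39.3, 39.6, 34.1, 32.7, 28.7 and 26.1%, and troponin C held 16.3, 17.1, 17.0, 18.1, 24.6 and 24.6%. The troponin T part was lower at each later age, and the troponin C part differed mainly between P1 and P5. Molecules of troponin T per molecule of troponin C went from 2.41 to 2.01 and 1.17 in 2n and from 2.31 to 1.81 and 1.06 in 4n. Molecules of troponin I per molecule of troponin C were 2.72, 2.53, 2.88, 2.72, 1.90 and 2.01. These ratios are of transcripts and say nothing of the protein, in which the subunits are joined in equal number.

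**Figure D4:**
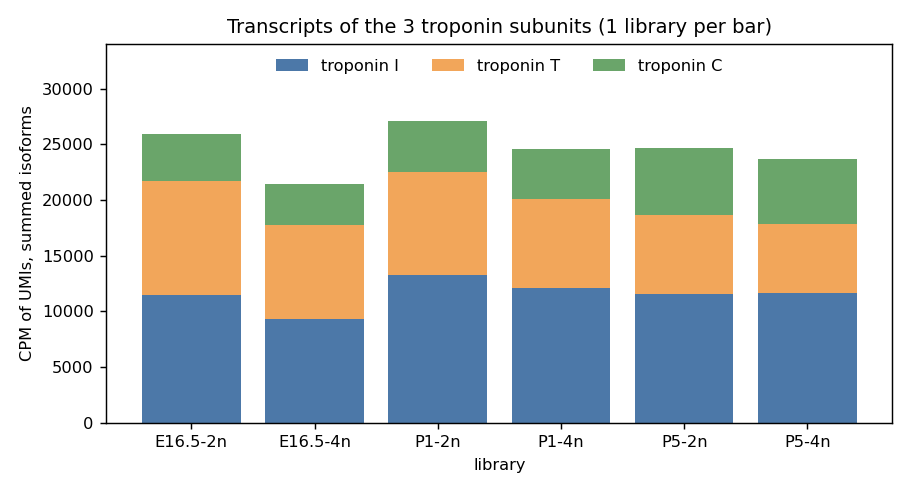
Summed CPM (vertical axis, from 0) of troponin I (Tnni1, Tnni2, Tnni3), troponin T (Tnnt1, Tnnt2, Tnnt3) and troponin C (Tnnc1, Tnnc2) in the 6 libraries (horizontal axis), 1 library per bar. The troponin C part is 16.3 to 18.1% of the bar at E16.5 and P1 and 24.6% at P5 in both ploidies, and the troponin T part goes from 39.3 to 28.7% in 2n and from 39.6 to 26.1% in 4n.

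Between 4n and 2n the members differed little. No member passed a 2-fold difference between 4n and 2n at E16.5, P1 or P5, where 4.69, 5.21 and 2.20% of all genes tested did. Tnnt2 was lower in the 4n library at each age, with log2 ratios of -0.26, -0.20 and -0.20, and so was Tnnt1, with -0.29 (-0.38 to -0.20), -0.26 (-0.39 to -0.12) and -0.28 (-0.41 to -0.15). Tnni1 was at -0.33, -0.16 and -0.06, and Tnnc1 at -0.21, -0.05 and -0.06. Tnni3 was at -0.29 and -0.12 at E16.5 and P1 and at 0.04 (0.03 to 0.05) at P5. Non-CM markers were more frequent in the 4n libraries (17.7, 26.9 and 10.3% of cells against 2.33, 2.18 and 5.22%), and without the cells that hold 3 such markers the ratio of Tnnc1 at P1 was 0.01 instead of -0.05. The pooled Tnni3 share differed by 0.72 points (0.21 to 1.24), 0.66 points (0.27 to 1.06) and 1.22 points (0.86 to 1.59) between 4n and 2n, in each case higher in 4n and far below the differences between ages.

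Cells with UMIs of 3 or more of 15 cycling markers had the isoforms of their age. They made up 15.6, 50.5, 1.98, 9.99, 9.77 and 37.4% of the libraries. Their pooled Tnni3 share minus that of the other cells was 0.31 points (-0.49 to 1.12), -0.13 (-0.92 to 0.66), 1.60 (0.14 to 3.04), 1.74 (1.02 to 2.46), 1.48 (0.74 to 2.21) and 3.34 points (2.83 to 3.86). At E16.5 the intervals included 0, at P1 and P5 the share was higher in cycling cells, and in P5-4n it was 79.0 against 75.6%. With cells thinned to 1000 UMIs the intervals included 0 in P1-4n (2.11, -0.30 to 4.48) and P5-2n (1.98, -1.32 to 5.10). In P5-4n, Tnni1 was at 2196 CPM in cycling against 3051 CPM in other cells and Tnni3 at 8251 against 9474 CPM. All troponins together were at a lower CPM in cycling cells in every library, for example at 20753 against 22343 CPM in E16.5-4n, 22078 against 27249 CPM in P1-2n and 20869 against 25580 CPM in P5-4n. Cycling cells were deeper, at medians of 2917 against 2127 UMIs in E16.5-2n and 4923 against 4408 UMIs in P5-4n. After removal of cells with 3 non-CM markers, an alternative chosen after the data had been seen, the difference was 3.03 points in P1-4n and 3.56 points in P5-4n.

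Within a library, cells at both ends of the Tnni3 share differed in other sarcomere genes. Cells were taken from the lowest and the highest 25% of the share (914 to 1768 cells low and 906 to 1770 cells high). Sarcomere genes that are not part of the share were compared, of which Myh7, Myh6, Myl7, Myl4 and Acta1 are given for all ages and the others for P5. Myh7, the fetal myosin heavy chain, was lower in the high-Tnni3 cells at P5, at 147 against 255 CPM in P5-2n (log2 ratio -0.80, -0.94 to -0.65) and at 114 against 234 CPM in P5-4n (-1.04, -1.20 to -0.89). At P1 it was at -0.23 and -0.30, and at E16.5 slightly higher in the high-Tnni3 cells, at 0.13 and 0.06. Myl7, the atrial light chain, went the other way, at 221 against 89.6 CPM in P5-2n (1.31, 1.13 to 1.48) and 47.6 against 13.2 CPM in P5-4n (1.85, 1.42 to 2.30), the latter from 204 and 57 UMIs. Myl7 at P5 lay in few cells, with UMIs in 222 of 4462 cells (up to 180 in 1 cell) in P5-2n and in 126 of 3678 cells (up to 122) in P5-4n. At E16.5 it was at 0.30 and 0.38. At P1 it was at 0.07 (-0.12 to 0.26) in P1-2n and at 0.47 (0.30 to 0.64) in P1-4n. Myl4, the other atrial light chain, was at -0.16, -0.25, -0.49, -0.32, 0.47 (0.27 to 0.68) and -0.21 (-0.52 to 0.10) in the 6 libraries. Without thinning it was thus higher in the high-Tnni3 cells, as Myl7 was, in P5-2n only. Myh6, the adult myosin heavy chain, was higher in the high-Tnni3 cells at E16.5, at 0.42 and 0.46, at -0.01 and -0.00 at P1, and lower in them at P5, at -0.09 (-0.13 to -0.05) and -0.18 (-0.22 to -0.15). This was not particular to Myh6. At P5, Actc1 (-0.11 and -0.21), Tpm1 (-0.11 and -0.22), Tnnt2 (-0.19 and -0.19) and Myl3 (-0.07 and -0.10) were also lower in them. Myl2 was at 0.00 and -0.10, Tnnc1 at -0.03 and -0.10, and Tnnt1 at 0.02 and -0.13, with intervals for Tnnt1 that included 0. Acta1 was lower in the high-Tnni3 cells in 5 of 6 libraries, with ratios from -0.38 to -0.90, and at -0.12 (-0.29 to 0.05) in P5-2n. In P5-4n the share of cycling cells was 52.5% among the high-Tnni3 and 25.3% among the low-Tnni3 cells, and it was 11.4 against 7.50% in P5-2n. With every cell thinned to 1000 UMIs and both ends redrawn, an alternative chosen after the data had been seen, the ratio of Myh7 was -0.76 (-1.08 to -0.45) in P5-2n and -0.42 (-0.80 to -0.04) in P5-4n, and that of Myl7 was 2.10 (1.63 to 2.59) and 3.92 (2.49 to 5.84). In P5-4n the thinned Myl7 ratio rests on 6.34 CPM in 631 low-Tnni3 cells and 95.8 CPM in 616 high-Tnni3 cells. The intervals take UMIs as independent and do not cover the concentration of Myl7 in few cells. The smaller differences of Myh7 were not all kept by thinning, at 0.05 (-0.02 to 0.11) and -0.01 (-0.09 to 0.08) at E16.5, and -0.19 (-0.29 to -0.08) and -0.00 (-0.15 to 0.14) at P1. Thinned Myl7 was at 0.47 and 0.47 at E16.5. At P1 it was at 0.04 (-0.28 to 0.37) and 0.05 (-0.30 to 0.41), with intervals that included 0. Thinned Acta1 was at -0.43, -0.04 (-0.66 to 0.58), -1.07, -0.25 (-1.02 to 0.51), -0.75 (-1.23 to -0.27) and -0.86. Thinned Myh6 was at 0.38 and 0.42 at E16.5, with intervals that included 0 in the other 4 libraries. Thinned Myl4 was at -0.04, -0.28, -0.22, 0.06, 0.63 and 1.25, with intervals that included 0 in E16.5-2n, P1-2n and P1-4n. In both P5 libraries thinned Myl4 was higher in the high-Tnni3 cells, with intervals above 0. In P5-4n this is opposite in sign to the unthinned ratio of -0.21. The thinned value there rests on 30.1 CPM in 631 low-Tnni3 cells and 71.4 CPM in 616 high-Tnni3 cells. Up to 97 Myl4 UMIs lay in 1 cell of P5-4n, which the interval does not cover, so no direction is read for Myl4 in P5-4n. Thinned Tpm1 was at 0.05 (0.01 to 0.09) in P5-2n and -0.15 in P5-4n. Over single cells the rank correlation of the Tnni3 share with the Myh6 share of Myh6 plus Myh7 was 0.04 to 0.09 (Spearman, 1906 to 2692 cells per library with at least 10 UMIs of each pair), too weak to read.

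**Figure D5:**
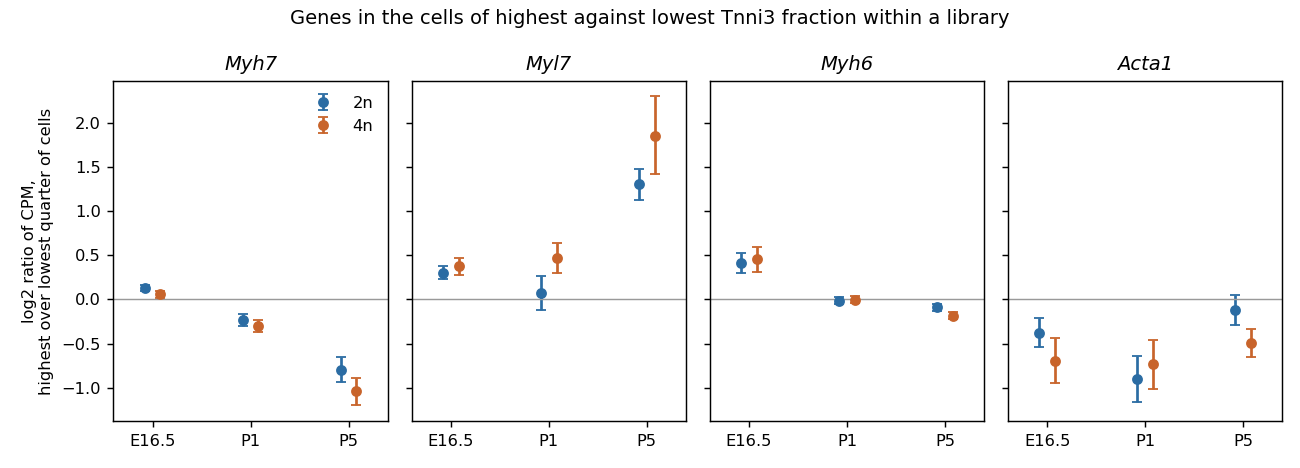
Log2 ratio of CPM (vertical axis) between the cells in the highest and the lowest 25% of the Tnni3 share within a library, for Myh7, Myl7, Myh6 and Acta1 at E16.5, P1 and P5 in 2n (blue) and 4n (orange), with exact 95% intervals. Myh7 goes from 0.13 and 0.06 at E16.5 to -0.80 and -1.04 at P5, and Myl7 from 0.30 and 0.38 to 1.31 and 1.85. At P1 Myl7 is at 0.07 (2n) and 0.47 (4n).

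Cells with little sarcomere transcript still held troponin UMIs. Where 12 sarcomere genes took under 2% of UMIs, a UMI of Tnnt2 was found in 68.9 to 81.4% of cells, against 99.9 to 100% of the others, and all troponins were at 4865 to 9275 CPM, against 21694 to 27158 CPM in the other cells. Their pooled Tnni3 share was 47.8, 41.8, 68.7, 64.2, 75.0 and 79.0%, near that of their own library.

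The other sarcomere genes gave a scale for the troponin I change. Myh6 was at 351, 294, 2522, 2263, 2502 and 2919 CPM and Myh7 at 3751, 3332, 955, 805, 183 and 166 CPM. The Myh6 share of their UMIs went from 8.55 to 93.2% in 2n and from 8.10 to 94.6% in 4n, against 43.5 to 75.7% and 44.3 to 76.9% for the Tnni3 share. The atrial light chains Myl4 and Myl7 had log2 ratios from E16.5 to P5 of -4.80 and -2.69 in 2n and of -5.19 and -4.34 in 4n. Myl2 and Myl3, the ventricular light chains, were at 0.31 and 0.27 (2n) and 0.44 and 0.35 (4n) over the same span, and Tnnc1 was at 0.52 and 0.66.

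Of 13 partners of troponin on the thin filament, 11 had at least 100 UMIs in a pair, and Neb and Tmod4 did not. From E16.5 to P1, 5 were more than 2-fold lower in 2n (Acta1, Acta2, Tpm2, Tpm3 and Tpm4) and 2 in 4n (Acta2 and Tpm3), and none was that much higher, beside 14.0% and 14.6% of all genes past 2-fold in either direction. From P1 to P5 (5.14% and 8.04% of all genes), 1 was higher in each ploidy, Tpm4 in 2n (1.05) and Acta1 in 4n (1.79), and none was lower. Tpm1, the tropomyosin of the heart to which troponin T binds, was at 8989, 7112, 9467, 8379, 12233 and 10889 CPM, with log2 ratios of 0.37 and 0.38 from P1 to P5, close to those of Tnnc1. Actc1, the cardiac actin, was at 12402, 9075, 9190, 8643, 9921 and 9123 CPM, and Acta2, the smooth muscle actin of the early heart, at 1763, 1448, 653, 597, 632 and 675 CPM. Tmod1, Lmod2, Lmod3 and Nebl, which cap or lengthen the filament, were within 2-fold in every age comparison, for example Tmod1 at 283, 239, 226, 193, 207 and 186 CPM. Tpm4, a tropomyosin of non-muscle cells, was at 31.7, 63.7, 10.5, 41.9, 21.7 and 22.8 CPM and higher in the tetraploid libraries of the earlier 2 ages, those in which non-CM markers were the most frequent. The part of those cells in Tpm4 was not tested.

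Among 9662 genes with at least 300 UMIs in all, the 5 with a pattern over the 6 libraries most like Tnni1 (Pearson r of log2(CPM + 1)) were Gnpda2, Klf15, Gstm5, Myoz1 and Fbxl6 (r from 0.9968 to 0.9996). The 5 most like Tnni3 were Srl, Uqcrh, Tmem160, Crat and Epn1 (0.9962 to 0.9982), and those most like Tnnt1 were 2210016L21Rik, Ahsa2, Eed, Hdhd2 and Dhodh (0.9967 to 0.9981). Over 6 points that share depth and library, 1281, 426 and 1817 genes had an r over 0.9 with Tnni1, Tnni3 and Tnnt1. Among the members, Tnni1 correlated with Tnnt2 at 0.9479, Tnni3 with Tnnt1 at -0.9272 and Tnni1 with Tnni3 at -0.7383.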

How the data were processed

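Single cell 3′ libraries (10x Genomics, v2 chemistry) of sorted left ventricular CMs were analysed, 1 per condition. The authors aligned reads with STAR within Cell Ranger (versions not given in the sources used here; Seurat 2.3.0 is also listed in the processing notes of the submitters) against GRCm38, and the deposited matrices hold unnormalized UMI counts. The sources used here do not say how doublets were treated, and no cells were removed for that. 2 deposited tables, which hold the comparison by the authors and a list of background genes, were not used here. The members, gene lists and comparisons were chosen with earlier results of these data known.

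UMIs were summed over all deposited cells (no CM filter) and divided by the total of the library (CPM). Ratios between libraries are log2 ratios without pseudocount, with a floor of 3 UMIs in place of 0, and 95% intervals are exact Poisson, Clopper-Pearson or binomial split intervals. They cover counting error only, and no p-values were computed because each condition is a single library. Counts of genes past 2-fold use genes with at least 100 UMIs in the pair. The Tnni3 share per cell uses cells with at least 10 Tnni1 plus Tnni3 UMIs. Depth per library is given in the report. Named genes were the 8 members, 13 thin filament partners, 6 sarcomere comparators, 13 fast skeletal genes and the 5 genes most like Tnni1, Tnni3 and Tnnt1. Genomic positions are from GENCODE M21 and promoter sequences from RefSeq. Python 3.11.15, numpy 2.4.6, scipy 1.17.1 and pandas 2.3.3 were used, and the statistics were tested on simulated data. Alternatives were other scalings, other filters on cells, thinning to 1000 or 2000 UMIs per cell, other minimum counts and a 1.5-fold limit.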

Additional observations from a re-analysis of the deposited data

Results flagged for a closer look

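The ratio of 4n over 2n CMs for Tnni3 had opposite signs at different ages, with 1 library on each side. The log2 ratio was -0.29 at E16.5 and 0.04 at P5, which differ by -0.33, and it was -0.12 at P1, which differs from P5 by -0.16. The difference was not tested, since each ratio rests on 2 libraries. With the median of ratios as the scaling the 3 values were -0.40, -0.24 and 0.01, and without cells that hold 3 non-CM markers they were -0.24, -0.06 and 0.04.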

How the results depend on the processing

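With 1 library per condition no test was made, so that stability is read from sizes. Of 324 log2 ratios of members under other scalings and cell filters, 202 moved by less than the counting interval, 115 moved further and 7 changed sign. Tnnt2 changed sign from E16.5 to P1 under the median of ratios (0.22 in 2n and 0.26 in 4n) and without the 50 most abundant genes (0.10 and 0.17), and from E16.5 to P5 in 4n under the median of ratios (0.082). Tnni1 did so from E16.5 to P1 in 4n under the median of ratios (0.068), and Tnnc1 for P1-4n over P1-2n without cells with 3 non-CM markers (0.0080). The median of ratios shifted all ratios from E16.5 to P1 by 0.34 (2n) and 0.33 (4n).

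The pooled Tnni3 share moved by less than its counting interval under the 3 cell filters tried. Thinning to 1000 UMIs put the median per cell at 42.9 and 45.5% (2n and 4n of E16.5), 64.7% (P1-4n, also at 2000 UMIs) and 75.0% (P5-2n). It put the share of cells over 50% Tnni3 at 29.5, 29.6, 81.1, 82.0, 95.2 and 97.3% in the 6 libraries, and thinning to 2000 UMIs at 88.8 and 89.1% (P1) and 98.6 and 98.8% (P5). At least 20 troponin I UMIs gave 22.8, 26.1, 90.7 and 94.3% in the 4 libraries before P5, and 99.8% in P5-4n, and P1-2n cells of at least 1000 UMIs gave 88.7%.

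Members past 2-fold numbered 2 in P1-2n over E16.5-2n under the median of ratios, where 10.1% of the genes tested passed it. With no minimum beyond 1 UMI they numbered 2 (P1-2n over E16.5-2n), 2 (P5-2n over P1-2n), 1 (P5-4n over P1-4n), 5 (P5-4n over E16.5-4n) and 1 (P1-4n over P1-2n), and past 1.5-fold 3, 1, 2 and 5 in the first 4 of these and 1 in P5-4n over P5-2n. The 2 in P5-2n over P1-2n at 1 UMI were Tnnt3 (2 against 15 UMIs) and Tnnc2 (0 against 1 UMI, with 3 in place of 0), both too few for a ratio. The share of all genes under the 1 UMI minimum and the 1.5-fold limit is not given, so these counts are not read as results about the members. Cycling minus other cells was 1.53 points (E16.5-2n) and 5.53 points (P1-2n) after thinning to 1000 UMIs, and 3.03 points in P1-4n without cells with 3 non-CM markers. No paired analysis was made, since there is 1 library of each ploidy per age, the labels carry no replicate numbers and the results come from no test. By the paper, 3 sorts of 1 litter each were made per age, so the 2n and 4n libraries of an age may share litters. The 2n and 4n values at each age are given side by side.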
